A study of Mus musculus with 2 samples.

Results

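The heat shock proteins and DnaJ co-chaperones were taken as every row of both liver libraries whose gene symbol began with Hsp followed by a digit or by a, b, d, e or h, or with Dnaja, Dnajb or Dnajc. Pseudogene rows, marked -ps, were left out, which removed 14 rows. This gave 74 genes of the 53342 rows in each library. By known location, 43 encode proteins of the cytosol and nucleus, 14 of the endoplasmic reticulum (ER) and 9 of mitochondria, and 8 were given no compartment. The symbol is a name and not a function: *Hspb11*, for example, encodes a subunit of ciliary transport.

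Liver mRNA was sequenced from 1 control and 1 iFIRKO sample. The iFIRKO genotype is labelled Adipoq-CreERT2; Insr flox/flox, in which the adiponectin promoter drives a tamoxifen-dependent Cre in adipocytes, so that the insulin receptor gene is deleted there. The control is labelled WT, and the methods of the study give it as IR flox/flox without Cre. Both were male mice aged 7 weeks that received tamoxifen at 100 mg/kg on 5 days, with tissue taken on day 3 after the last dose. Cre activity and loss of the receptor therefore cannot be told apart, and it is not stated whether a library came from 1 mouse or from a pool. With 1 library per genotype there is no replicate check and no p-value, and a difference below is a difference between these libraries.

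Molecular chaperones bind unfolded protein and release it after cycles of ATP hydrolysis. DnaJ proteins, some of which bring clients to Hsp70, carry a J domain that starts the ATPase of Hsp70. Nucleotide exchange factors reset Hsp70, and Hsp90 takes over part of the clients, among them steroid receptors and kinases. Small heat shock proteins hold unfolded protein without ATP. In hepatocytes, which secrete most plasma proteins, the ER set of chaperones folds the secreted load, and the mitochondrial set folds imported enzymes. Heat shock factor 1 (*Hsf1*) drives many of the cytosolic genes under stress, while the unfolded protein response drives the ER genes.

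Values are the authors' normalized reads, returned from the log2 to the linear scale. Estimated depth was 42277010 reads for control and 41305567 for iFIRKO. A gene was tested if either library reached 41.8 normalized reads, which is a CPM (reads scaled to library depth) of 1. Fold changes are the iFIRKO value over the control value with a pseudocount of 4.18 normalized reads, and brackets give the 95% exact Clopper-Pearson interval of the log2 ratio on estimated read pairs, which covers counting error only. The liver label held: *Alb* was listed at 4167150 normalized reads for control and 3944160 for iFIRKO. Outside the chaperones, the 4 erythroid markers were all more than 1.5-fold higher in iFIRKO, and the 5 Kupffer cell and 5 endothelial markers all had a negative log2 fold change, with medians of -0.62 and -0.47. *Insr* had 4246 normalized reads in control against 3692 in iFIRKO.

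Of the 74 genes, 62 were tested. Only *Hspa1a* exceeded its control value more than 1.5-fold, 1 of 62 or 1.61%, where 4.46% of all 13400 tested genes were. *Hspb1* and *Hspa12b* were more than 1.5-fold lower, 2 of 62 or 3.23%, where 7.28% of all tested genes were. Within 1.2-fold of their control value were 44 of the 62 chaperone genes, beside 8603 of all 13400 tested genes. The median log2 fold change of the 62 was 0.05 beside 0.01 over all tested genes. Among genes that reached 418 normalized reads in either library, the median absolute log2 fold change was 0.14 for 44 chaperone genes and 0.15 for all 8380. None of these 44 passed 1.5-fold, where 203 of the 8380 were higher and 297 lower by more than 1.5-fold. The shares of genes past 1.5-fold were thus below those of all genes in both directions, on counts of 1 and 2 that a single gene can change.

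**Figure D1:**
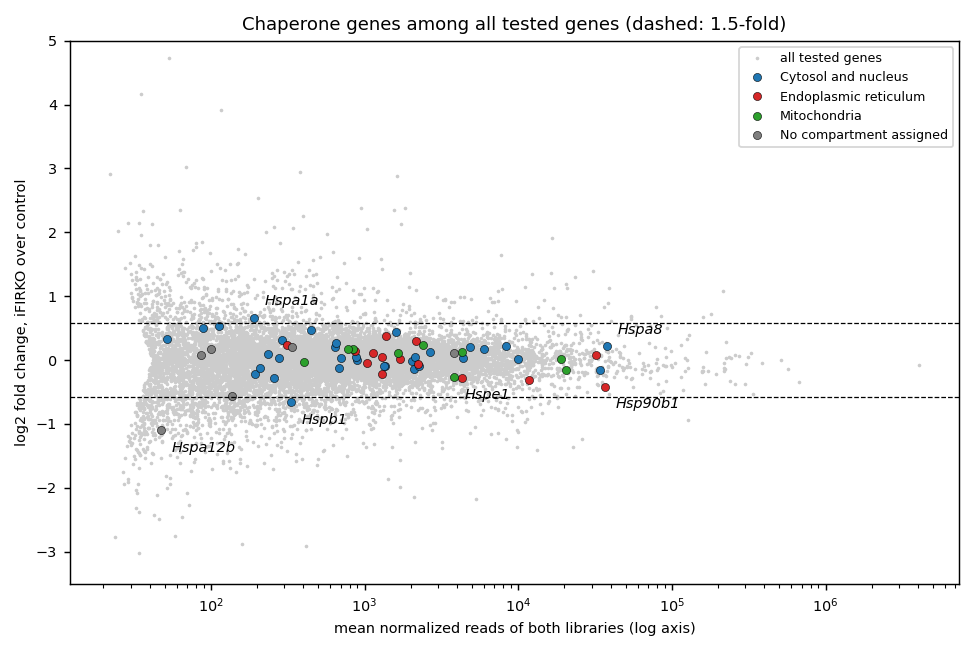
Log2 fold change, iFIRKO over control, against mean normalized reads of both libraries (log axis) for all 13400 tested genes (grey) and the 62 tested chaperone genes (coloured by compartment), with dashed lines at 1.5-fold. *Hspa1a* lies above the upper line, *Hspb1* and *Hspa12b* lie below the lower line, and the abundant chaperone genes at the right lie between the lines.

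The remaining 12 genes were below the minimum. *Dnajb3*, *Dnajb8*, *Dnajc5b*, *Dnajc5g*, *Hspb3* and *Hspb9* were listed at 0 in both libraries. *Dnajc6*, the auxilin that uncoats clathrin vesicles, had 1.99 normalized reads in control against 10.1 in iFIRKO, which is 1 and 5 read pairs. The others, *Hspb2*, *Hspb7*, *Hspa1l*, *Dnajb7* and *Dnajb13*, had between 1.99 and 16.4 normalized reads, too few to show a difference at this depth.

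Promoter sequence from RefSeq (GRCm38.p6) was at hand for 60 of the 74 genes, in 77 windows, and is shown for the genes on which the results turn. The 250 bases before each start were searched for the heat shock element as GAANNTTC or TTCNNGAA, each of which reads the same on both strands, for the longer element of 3 units, GAANNTTCNNGAA or TTCNNGAANNTTC, which holds the shorter one, and for the ER stress response element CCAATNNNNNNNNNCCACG on both strands. The short heat shock element was in 16 of the 77 chaperone windows (20.8%) and in 12.8% of all 32851 windows. The longer one was in 4 chaperone windows (5.19%), of *Hspd1*, *Hspe1* and *Dnajb6*, and in 0.466% of all windows. The windows of *Dnajb6* overlap and hold the same site, at 29735852 to 29735864, and *Hspd1* and *Hspe1* share theirs. These windows are therefore not separate counts, and some windows with the short element overlap in the same way. The ER element was in 3 chaperone windows (3.90%), of *Hspa5*, *Hsp90b1* and *Dnajc3*, and in 0.113% of all. A match is a description of letters and not evidence of binding. No window was matched for *Dnajc2*, *Dnajc5*, *Dnajc5b*, *Dnajc11*, *Dnajc12*, *Dnajc18*, *Dnajc22*, *Dnajc30*, *Hsp90aa1*, *Hsp90ab1*, *Hspa8*, *Hspa9*, *Hspa13* and *Hspb2*.

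The ER stress response elements are printed because their 3 owners did not differ alike between the libraries. Capitals mark the matches, and each stretch is given 5′ to 3′ on the strand of its gene.
Hspa5, chr2:34772020-34772049, forward strand: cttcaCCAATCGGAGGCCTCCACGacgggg
Hsp90b1, chr10:86705529-86705660, reverse strand: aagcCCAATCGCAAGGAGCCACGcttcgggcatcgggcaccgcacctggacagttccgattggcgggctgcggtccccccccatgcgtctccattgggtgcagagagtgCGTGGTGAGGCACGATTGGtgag
Dnajc3, chr14:118937807-118937866, forward strand: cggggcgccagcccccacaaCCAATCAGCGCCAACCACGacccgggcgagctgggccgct

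The *Hsp90b1* stretch holds 1 match on each strand. The next sequences belong to the gene past 1.5-fold upwards, its near-copy, the cytosolic gene past 1.5-fold downwards and *Dnajb4*, with the short heat shock element in capitals. These 4 were taken from genes whose windows hold the element, so that all 4 hold it is no result. The genes lie on both sides of no change. The window of *Hspa12b*, also past 1.5-fold downwards, held no match. Of the 60 genes with a window, 14 held the short element.
Hspa1a, chr17:34972197-34972316, reverse strand: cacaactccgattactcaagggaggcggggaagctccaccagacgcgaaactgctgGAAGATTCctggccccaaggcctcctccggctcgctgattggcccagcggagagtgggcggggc
Hspa1b, chr17:34959279-34959398, reverse strand: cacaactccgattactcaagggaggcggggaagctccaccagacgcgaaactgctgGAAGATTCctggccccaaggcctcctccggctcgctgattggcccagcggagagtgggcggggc
Hspb1, chr5:135887761-135887850, forward strand: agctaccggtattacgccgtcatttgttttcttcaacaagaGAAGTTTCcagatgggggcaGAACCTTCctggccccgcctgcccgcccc
Dnajb4, chr3:152193846-152193905, reverse strand: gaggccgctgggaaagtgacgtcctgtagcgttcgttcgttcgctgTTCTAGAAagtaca

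The printed stretches of *Hspa1a* and *Hspa1b* are the same letter for letter, and the 250 bases before their starts differed by 3 edits. The mitochondrial pair *Hspd1* and *Hspe1* is read in opposite directions from overlapping windows. Capitals mark the longer heat shock element. In this pair they span overlapping matches, at 55088059 to 55088071 and 55088064 to 55088076, which are the same stretch of DNA seen from either strand.
Hspd1, chr1:55088055-55088084, reverse strand: gcggggccTTCCGGAAGGTTCTAGAAcgga
Hspe1, chr1:55088051-55088080, forward strand: acggtccgTTCTAGAACCTTCCGGAAggcc
Dnajb6, chr5:29735844-29735873, forward strand: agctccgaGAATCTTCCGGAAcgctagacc

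Levels between genes were compared per length, as normalized reads per kilobase of all annotated exons of a gene. By mean level over both libraries the order was led by the cytosolic *Hsp90ab1* at 11360 normalized reads per kilobase, the ER gene *Hsp90b1* at 9075, the cytosolic *Hspa8* at 8774, the mitochondrial *Hspd1* at 7752, the ER gene *Hspa5* at 7612 and the mitochondrial *Hspa9* at 4409. Each compartment thus had its main Hsp70 and its main Hsp90 or Hsp60 among the first 6 of 62. Far below them stood the stress-inducible *Hspa1b* at 159 and *Hspa1a* at 64.5, and *Hspb1* at 320. The highest DnaJ genes were *Dnajc3* (2288) of the ER and *Dnajc22* (2079), a membrane protein without an assigned compartment. With 1 library per genotype, no spread is known by which neighbours in this order could be told apart.

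**Figure D2:**
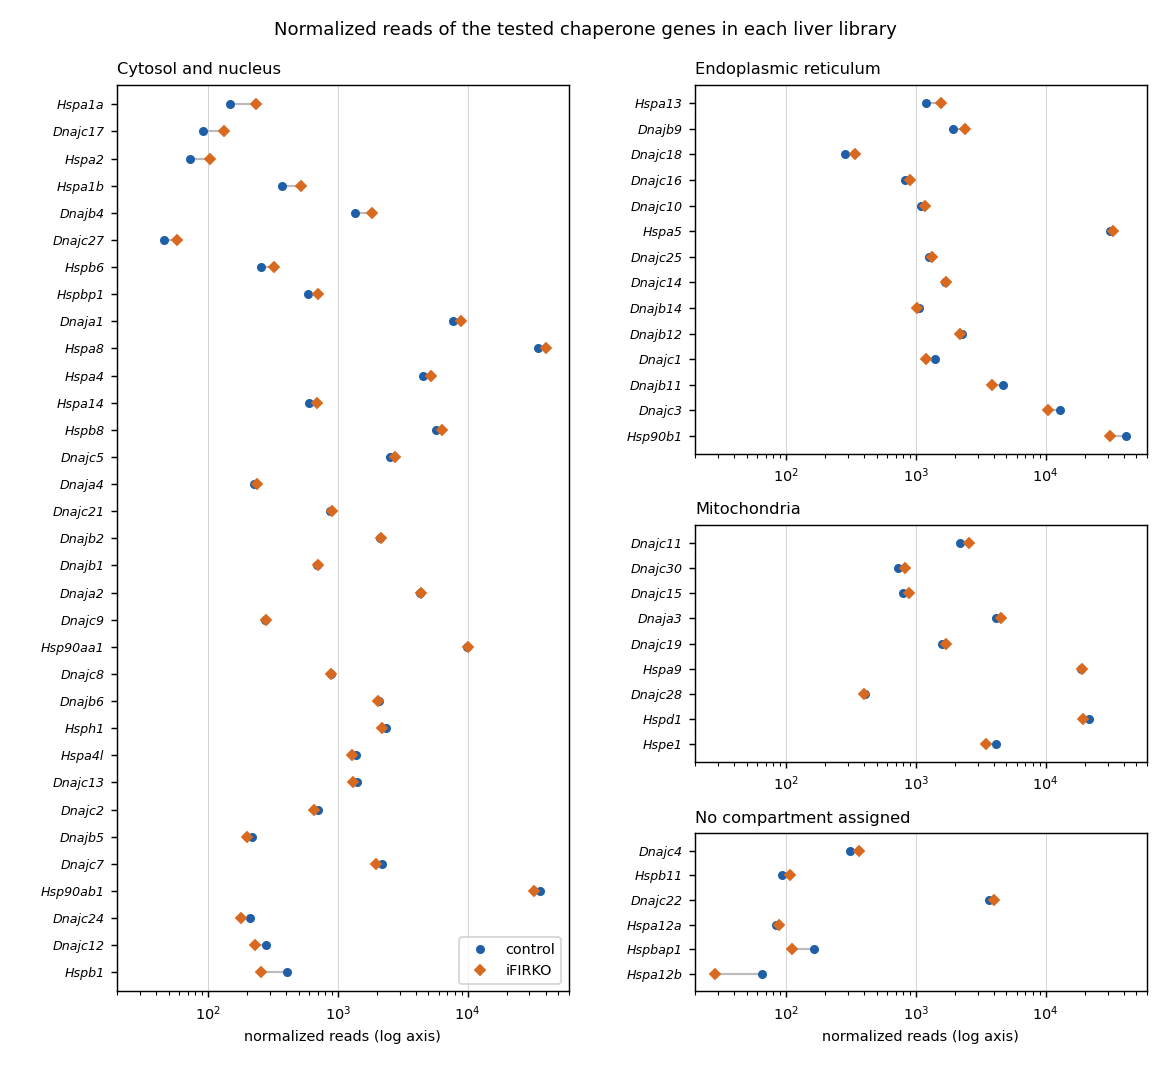
Normalized reads (log axis) of the 62 tested chaperone genes in the control library (blue circles) and the iFIRKO library (orange diamonds), by compartment and ordered by fold change. The points of most genes touch or overlap. The widest gaps are those of *Hspa12b*, *Hspb1* and *Hspa1a*.

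Summed over each compartment, the cytosolic and nuclear genes took 0.298% of all normalized reads in control and 0.315% in iFIRKO, the ER genes 0.248% and 0.223%, and the mitochondrial genes 0.130% and 0.127%. The ER sum was lower in iFIRKO by 0.17 on the log2 scale (-0.19 to -0.15), from 104015 to 92580 normalized reads. The cytosolic sum was slightly higher, with a log2 ratio of 0.06 (0.05 to 0.08), from 125291 to 130823. The mitochondrial sum was slightly lower at -0.04 (-0.07 to -0.02), from 54501 to 52901. The ER difference came mainly from *Hsp90b1*, whose iFIRKO value less its control value was -10551 normalized reads. Beside it the ER genes went both ways, with -2896 over the DnaJ genes against 1655 for *Hspa5*. The differences of the other 2 compartments were also balances of genes that went both ways. In the cytosol, *Hspa8* differed by 5635 and *Hsp90ab1* by -3550. In mitochondria, *Hspd1* differed by -2170 and *Hspe1* by -709, against 1092 over the DnaJ genes. Without *Hsp90b1* the ER log2 ratio was -0.02 (-0.04 to 0.00), without *Hspa8* the cytosolic ratio was 0.00 (-0.02 to 0.02), and without *Hspd1* the mitochondrial ratio was 0.02 (-0.01 to 0.06). The sums of the ER and mitochondrial genes also went against the medians of their genes, which were 0.03 and 0.11.

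**Figure D3:**
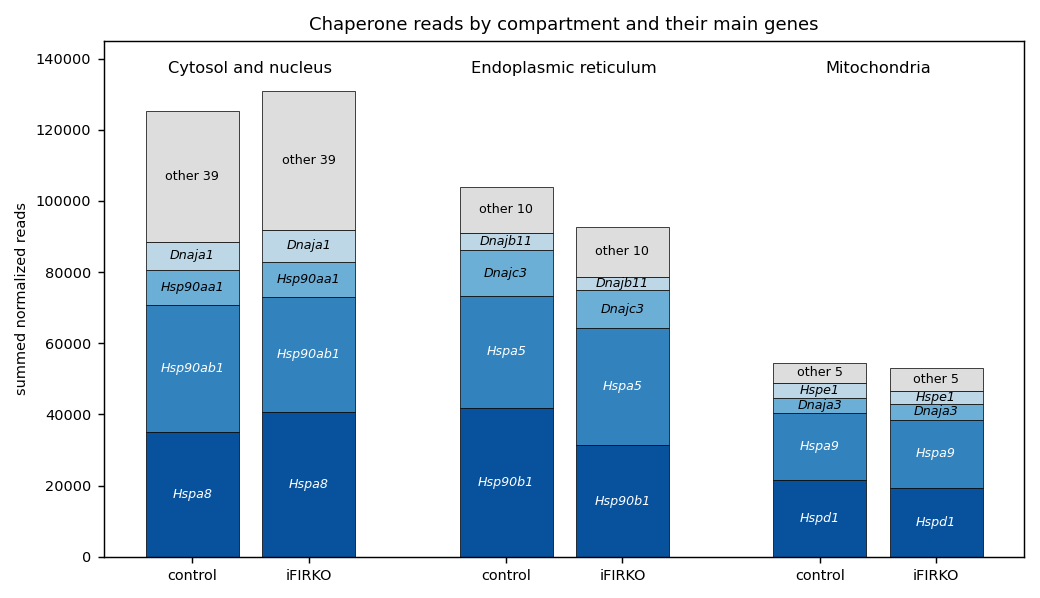
Summed normalized reads (linear axis from 0) for the cytosolic, ER and mitochondrial chaperone genes in each library, with the 4 genes of most reads in each compartment drawn as blue segments and the rest in grey. The ER bar drops from 104015 reads in control to 92580 in iFIRKO, and most of the drop is the dark *Hsp90b1* segment at its base.

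Within the cytosol, the constitutive Hsp70, *Hspa8* (GRCm38 chromosome 9, 40800984 to 40810087), gave 34921 normalized reads in control against 40556 in iFIRKO, with a log2 fold change of 0.22 (0.19 to 0.25). The constitutive Hsp90, *Hsp90ab1*, went the other way, with 35845 and 32295 normalized reads and a log2 fold change of -0.15 (-0.18 to -0.12). *Hsp90ab1* thus had more reads than *Hspa8* in control and fewer in iFIRKO. *Hsp90aa1*, the inducible Hsp90, was near level at 9921 and 9998, and the sign of its difference changed with the scaling of the libraries. All of these differences were far below 1.5-fold.

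The inducible Hsp70 genes were higher in iFIRKO. *Hspa1a* (chromosome 17, 34969190 to 34972156) had 147.5 normalized reads in control against 235.3 in iFIRKO, with a log2 fold change of 0.66 (0.25 to 1.12). *Hspa1b* (34956436 to 34959238) had 373.1 and 520.2, a log2 fold change of 0.48 (0.20 to 0.75). Their coding sequences of 1923 and 1926 bases differed by 10 edits, so reads could be split between them in the authors' counting, and their separate values are uncertain. Summed, the pair had 520.6 and 755.5 normalized reads, 1.45 times as many in iFIRKO with a log2 ratio of 0.54 (0.30 to 0.77), which is short of 1.5-fold. *Hspa2*, an Hsp70 best known from testis, had only 72.4 and 104.7 normalized reads, and its interval held no change.

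Of the regulators of the Hsp70 cycle, the members by symbol named in this paragraph differed less than the inducible Hsp70 genes. The Hsp70 partner *Bag3*, not a member by symbol and described below, did not, with a log2 fold change of 0.63. *Hspa4*, a nucleotide exchange factor, had 4510 and 5219 normalized reads, a log2 fold change of 0.21 (0.13 to 0.29). Its relatives *Hspa4l* and *Hsph1* had log2 fold changes of -0.10 and -0.09, with intervals that held no change. *Hspbp1*, another exchange factor, had 588.5 and 707.5 normalized reads and a log2 fold change of 0.26 (0.04 to 0.49). *Hspa14*, which works at the ribosome with *Dnajc2*, had a log2 fold change of 0.21 (-0.02 to 0.43), and *Dnajc2* had -0.12 (-0.35 to 0.10).

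Among the cytosolic DnaJ genes, *Dnajb4* (chromosome 3, 152178511 to 152210302) was second to *Dnajc17* in log2 fold change and far more abundant, with 1357 in control and 1851 in iFIRKO and a log2 fold change of 0.45 (0.30 to 0.59). *Dnaja1*, first of the cytosolic DnaJ genes by reads, had 7695 and 8987 normalized reads and a log2 fold change of 0.22 (0.16 to 0.29), close to the value of *Hspa8*. Per kilobase it was behind *Dnaja2* (967 against 1463). That order rests on annotated exon lengths of 8629 and 2975 bases, and exons of *Dnaja1* overlap those of 3 other genes, so it is uncertain. *Dnaja2*, which encodes a relative of DNAJA1, was near level at 4309 and 4396. *Dnajb1*, a standard readout of the heat shock response, was also near level, with 692.8 and 707.6 normalized reads and a log2 fold change of 0.03 (-0.19 to 0.25). The inducible genes thus did not differ alike, with *Hspa1a*, *Hspa1b* and *Dnajb4* higher and *Dnajb1* and *Hsp90aa1* near level. The small heat shock gene *Hspb1*, described below, was lower at -0.66. Of the genes with the longer heat shock element, *Hspd1* and *Hspe1* were lower, at -0.15 and -0.27, and *Dnajb6* was near level at -0.02.

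The other cytosolic DnaJ genes gave small or imprecise differences. *Dnajc7*, which binds both Hsp70 and Hsp90, had 2200 and 1989 normalized reads and a log2 fold change of -0.15 (-0.27 to -0.02). *Dnajc5*, the cysteine string protein of secretory vesicles, had 2547 and 2774 and a log2 fold change of 0.12 (0.01 to 0.23). *Dnajc17*, a nuclear protein, had a log2 fold change of 0.53, but from only 91.2 and 133.8 normalized reads, and its interval (-0.03 to 1.12) held no change. The lowest were *Dnajc12*, which associates with aromatic amino acid hydroxylases, at -0.28 (-0.65 to 0.08), and *Dnajc24*, a factor of diphthamide synthesis, at -0.22 (-0.66 to 0.19).

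The small heat shock genes were split. *Hspb1* (chromosome 5, 135887919 to 135889563), which encodes Hsp25, had 405.5 normalized reads in control against 254.9 in iFIRKO, with a log2 fold change of -0.66 (-0.996 to -0.338), or 1.58-fold lower. The row of its pseudogene, *Hsp25-ps1*, which could share its reads, was lower as well, at 57.7 and 17.1. *Hspb8*, by far the most abundant small heat shock gene in these livers, had 5669 and 6377 normalized reads and a log2 fold change of 0.17 (0.10 to 0.24). *Hspb6* had 258.9 and 324.7, and its interval (-0.01 to 0.67) held no change.

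**Figure D4:**
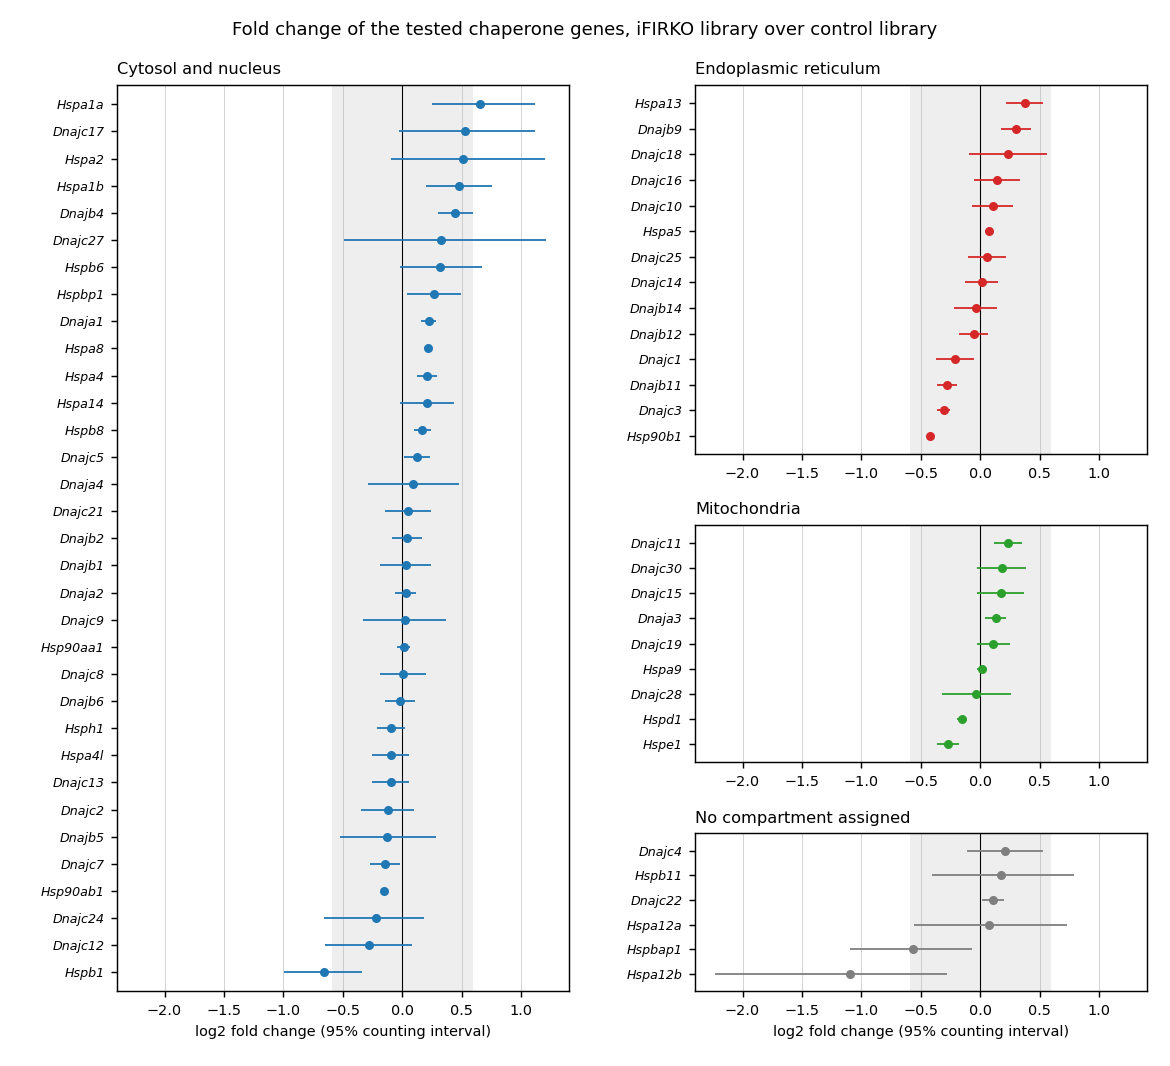
Log2 fold change, iFIRKO over control, of the 62 tested chaperone genes by compartment, with bars for the 95% exact interval of counting error and grey shading for the range within 1.5-fold. *Hspa1a*, *Hspb1* and *Hspa12b* lie outside the shading, and the bars of all 3 reach into it.

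In the ER, *Hsp90b1*, which encodes GRP94, a chaperone of secreted and membrane proteins (chromosome 10, 86690209 to 86705509), showed the widest gap. It had 41867 normalized reads in control against 31315 in iFIRKO, with a log2 fold change of -0.42 (-0.45 to -0.39), or 1.34-fold lower. *Hspa5*, which encodes BiP, the Hsp70 of the ER, did not share this, with 31363 and 33017 normalized reads and a log2 fold change of 0.07 (0.04 to 0.11). *Hsp90b1* therefore went from 40.3% of the ER chaperone reads in control to 33.8% in iFIRKO, and *Hspa5* from 30.2% to 35.7%.

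The DnaJ partners of BiP also fell on both sides. *Dnajc3*, which encodes p58IPK (chromosome 14, 118937976 to 118981697), had 13007 and 10514 normalized reads, a log2 fold change of -0.31 (-0.36 to -0.25). *Dnajb11*, a soluble DnaJ protein that delivers unfolded protein to BiP, had 4723 and 3893, a log2 fold change of -0.28 (-0.37 to -0.19). *Dnajc1* was lower too, at -0.21 (-0.37 to -0.06). In contrast, *Dnajb9*, which encodes ERdj4, a repressor of the stress sensor IRE1, had 1943 and 2394 normalized reads and a log2 fold change of 0.30 (0.18 to 0.42). *Hspa13*, an ER protein related to Hsp70, had 1204 and 1561 and the highest log2 fold change of the ER genes, 0.37 (0.22 to 0.53).

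Of the other DnaJ genes of the ER, *Dnajb12* and *Dnajb14*, which act in the degradation of membrane proteins, were near level with log2 fold changes of -0.06 and -0.04, and *Dnajc14* and *Dnajc25* had 0.01 and 0.05. For *Dnajc10*, which encodes a disulfide reductase, *Dnajc16* and *Dnajc18* the log2 fold changes were 0.11, 0.14 and 0.23, each with an interval that held no change. Of the 3 owners of the ER stress response element printed above, *Hsp90b1* and *Dnajc3* were lower and *Hspa5* slightly higher.

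In mitochondria, the chaperonin pair was lower. *Hspd1*, which encodes Hsp60 (chromosome 1, 55077835 to 55088243), had 21565 and 19395 normalized reads, a log2 fold change of -0.15 (-0.19 to -0.11). *Hspe1*, which encodes its lid Hsp10 (55088132 to 55091307), had 4160 and 3451, a log2 fold change of -0.27 (-0.36 to -0.18). The annotated spans of these neighbours overlap by 112 bases on opposite strands, and whether the authors counted by strand is not given. The Hsp70 of mitochondria, *Hspa9*, was level at 18908 and 19096.

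None of the 6 mitochondrial DnaJ genes was past 1.5-fold, beside 4.46% of all tested genes higher and 7.28% lower. *Dnajc11*, a protein of the contact sites between both membranes, had 2200 and 2590 normalized reads, a log2 fold change of 0.24 (0.12 to 0.35). *Dnaja3*, the main DnaJ partner of mitochondrial Hsp70, had 4143 and 4530, a log2 fold change of 0.13 (0.04 to 0.22). *Dnajc15* and *Dnajc19* of the import motor had log2 fold changes of 0.17 and 0.11, and *Dnajc30* had 0.18, with intervals that held no change. *Dnajc28* was near level at 409.3 and 400.4 normalized reads, a log2 fold change of -0.03 (-0.32 to 0.26). The sum over the 6 mitochondrial DnaJ genes had a log2 ratio of 0.15 (0.10 to 0.21), whereas that over the 11 ER DnaJ genes was -0.15 (-0.18 to -0.11) and that over the 24 cytosolic ones was 0.09 (0.06 to 0.12).

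Of the 8 genes without a compartment, 6 were tested. *Hspa12b* (chromosome 2, 131127280 to 131146321), an unusual Hsp70 relative known from endothelial cells, had 66.0 normalized reads in control against 28.7 in iFIRKO, with a log2 fold change of -1.09 (-2.23 to -0.28). Endothelial markers were lower beside it: all 5 had a negative log2 fold change, from -0.79 to -0.23, their summed normalized reads were 7700 in control and 5490 in iFIRKO, and none was at 0. Their part in the value of *Hspa12b* was not tested, and in a bulk sample fewer cells of a type and less RNA per cell cannot be told apart. *Hspbap1*, which encodes a protein that binds HSPB1, had 165.8 and 110.6 normalized reads and a log2 fold change of -0.57 (-1.09 to -0.07), just short of 1.5-fold. *Dnajc22*, the most abundant of the 8, had 3700 and 3992 and a log2 fold change of 0.11 (0.02 to 0.20).

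The partners of the chaperones were followed as lists of genes that are not members by symbol. In the cytosolic list of 23 co-chaperones and heat shock factors, 1 was more than 1.5-fold higher and none lower, with a median log2 fold change of 0.01. In this and the lists that follow, counts of 0 or 1 gene stand beside 4.46% higher and 7.28% lower over all tested genes, and nothing is read from them about a list. The higher one was *Bag3*, which links Hsp70 to HSPB8 and to autophagy, with 1056 normalized reads in control against 1634 in iFIRKO and a log2 fold change of 0.63 (0.47 to 0.79). *Fkbp4*, an immunophilin on Hsp90 and the most abundant of the list, had 10803 and 9020 and a log2 fold change of -0.26 (-0.32 to -0.20). *Hsf1* itself had 654.2 and 711.6, and its interval (-0.10 to 0.34) held no change. *Unc45a*, a myosin chaperone, had 0.33 (0.14 to 0.53), *St13* had 0.01, and *Cryab*, whose exons overlap those of *Hspb2*, had -0.28 (-0.78 to 0.17).

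The chaperonin TRiC and its feeder prefoldin, which fold actin and tubulin, were the most level of the lists. All 14 genes were within 1.2-fold, as were 8603 of all 13400 tested genes. Their log2 fold changes ran from -0.12 in *Pfdn5* and -0.11 in *Cct4* to 0.12 in *Vbp1* and 0.19 in *Pfdn4*. The abundant *Cct8* had 5259 and 5404 normalized reads and *Cct5* had 5034 and 4950.

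In the ER list of 24 partners, 1 was more than 1.5-fold lower and none higher, with a median log2 fold change of -0.04. The lower one was *Sdf2l1*, a cofactor of BiP and DNAJB11, with 1467 normalized reads in control against 565.5 in iFIRKO, with a log2 fold change of -1.37 (-1.58 to -1.17). *Pdia6*, a disulfide isomerase, had 14590 and 9830, a log2 fold change of -0.57 (-0.62 to -0.52). *Calr*, the lectin chaperone calreticulin, had 46287 and 31999, a log2 fold change of -0.53 (-0.56 to -0.50), and *Pdia3*, its disulfide isomerase partner, named after its value was seen, had -0.54 (-0.58 to -0.50). Not all abundant ER folding genes did so: *P4hb* had 71241 and 67826, a log2 fold change of -0.07 (-0.09 to -0.05), *Hyou1*, an exchange factor for BiP, had 0.12 (0.06 to 0.18), and the stress sensor *Eif2ak3* had 0.17 (-0.04 to 0.39). The isomerase *Pdia4*, the lectin chaperone *Canx* and the degradation factor *Edem1*, also named after their values were seen, had -0.30, -0.22 and -0.15. Like *Pdia3*, these were lower genes picked from the list. Others of the list, named after their values were seen too, were level or slightly higher. *Herpud1*, *Syvn1*, *Sec63* and *Sel1l* had 0.06, 0.12, 0.07 and 0.04, and *Xbp1* had -0.01. Of the 24 genes, 15 had a negative and 9 a positive log2 fold change, beside 6525 and 6875 of all 13400 tested genes. The summed normalized reads of the 24 were 258244 and 223866, a log2 ratio of -0.21 (-0.22 to -0.19).

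In the mitochondrial list of 15 partners, 1 was more than 1.5-fold higher and none lower, and 14 had a positive log2 fold change, with a median of 0.11. Over all 13400 tested genes, 6875 had a positive log2 fold change, with a median of 0.01. *Clpb*, a disaggregase of the intermembrane space, had 1314 and 2033 normalized reads, a log2 fold change of 0.63 (0.49 to 0.77). *Clpx* had 11783 and 12303 (0.06), *Trap1*, the mitochondrial Hsp90, had 6484 and 7183 (0.15), and the protease *Htra2* had 0.28 (0.02 to 0.55). *Timm44*, a subunit of the import motor, was near level at 0.03. *Grpel2*, an exchange factor for HSPA9, was the exception at -0.30 (-0.47 to -0.14), with 1346 and 1089 normalized reads.

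**Figure D5:**
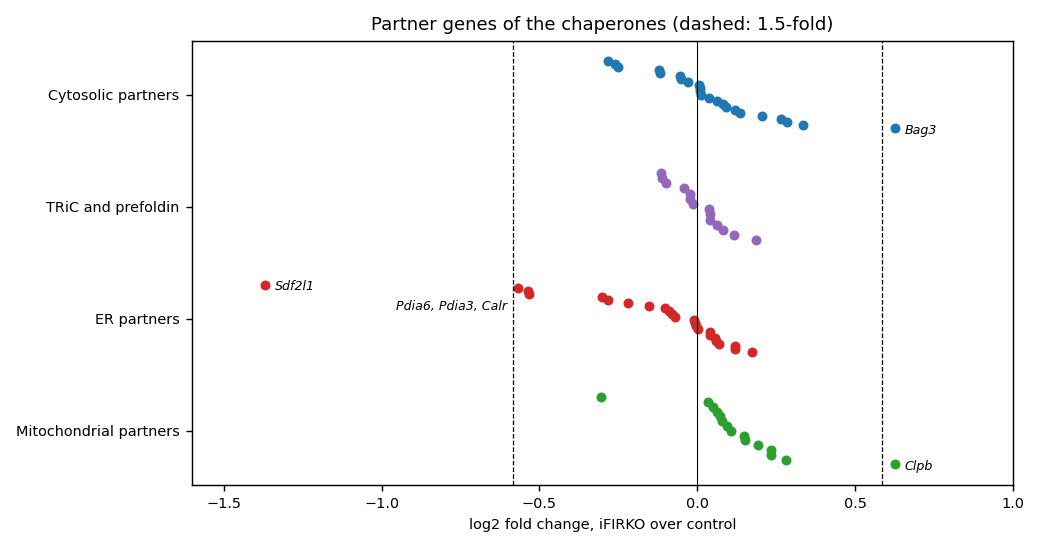
Log2 fold change, iFIRKO over control, of every tested gene in the 4 partner lists, each list drawn in order of value, with dashed lines at 1.5-fold. *Sdf2l1* lies past the lower line, *Bag3* and *Clpb* past the upper line, and all 14 TRiC and prefoldin genes lie close to 0.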

How the data were processed

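The authors prepared stranded mRNA libraries, sequenced them on an Illumina NovaSeq and deposited normalized read counts on the log2 scale, 1 value per row named by symbol, in which scaled counts of 1 or less appear at 0. The build is mm10 per the labels, and the aligner, counter, annotation and scaling are not given in the sources used here. The commonest low value was taken as 1 read pair. Of low values, 46.5% (control) and 48.3% (iFIRKO) were then whole pairs within 0.01, so depths and intervals are estimates. Positions and exon lengths came from GENCODE M21. Annotated exons of 29 of the 74 genes overlap those of another gene, where values are uncertain. The members, lists, minimum and pseudocount were chosen with earlier results of these data known. Genes named are, per compartment, the 6 most abundant and the 3 highest and 3 lowest by fold, all past 1.5-fold, and 2 each of the partner lists by level, highest and lowest fold, with *Hsf1* and *Insr*. The other members named, and partners said to be so, were chosen after their values were seen. The planned count of protein motifs was not run, as no protein table was used here. Scripts ran in Python 3.11.15 with scipy 1.17.1, edlib 1.3.9.post1, pandas 2.3.3, numpy 2.4.6 and matplotlib 3.10.9, and were tested on simulated data.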

Additional observations from a re-analysis of the deposited data

How the results depend on the processing

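Chaperone genes more than 1.5-fold higher numbered 1, and those lower 2. The higher count became 0 with a pseudocount of 41.8 normalized reads, where *Hspa1a* was lost, 2 without a minimum, where *Dnajc6* entered on 5 read pairs, and 0 at a fold above 2. The lower count became 1 with the minimum in both libraries or at 209 normalized reads, both of which leave out *Hspa12b*, and 1 at a fold above 2, which *Hspa12b* alone passed. Over all genes, higher and lower numbered 371 and 576 with the larger pseudocount, 1960 and 2620 without a minimum, 288 and 440 with the minimum of 209, and 209 and 267 at a fold above 2. Compartment sums changed without their gene of most reads: the cytosolic log2 ratio was -0.0016 without *Hspa8*, the ER ratio -0.021 without *Hsp90b1* and the mitochondrial ratio 0.025 without *Hspd1*. Median-ratio scaling and a total without the 20 most abundant genes moved every gene by -0.010 and -0.012. Of 127 alternative values for 30 named chaperone genes none left its counting interval and 1, for *Hsp90aa1*, changed sign. Those scalings moved genes by less than the distance to any limit of these intervals, so they could not take a value out. Changes of the minimum are not among the 127 values. Adding pseudogene rows or summing *Hspa1a* with *Hspa1b* was chosen after seeing the data. No paired analysis was possible because each genotype has 1 library. Genes near 41.8 normalized reads, such as *Hspa12b* and *Dnajc27*, are those where depth limits most.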

Other observations

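Of the 14 pseudogene rows left out of the chaperone genes, *Hspd1-ps3* had the most reads, 263.4 in control and 215.7 in iFIRKO, and *Hspd1-ps4* had 19.4 and 42.2. *Dnajc19-ps* had 20.6 and 22.7 normalized reads and *Hspa9-ps1* had 10.9 and 10.1. These rows are small beside *Hspd1*, *Dnajc19* and *Hspa9*, whereas *Hsp25-ps1*, with 57.7 and 17.1, is larger beside *Hspb1*.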
